A study of Danio rerio with 3 samples.

Results

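The genes described here are the translation initiation and elongation factors of the zebrafish embryo, taken as every gene whose single platform symbol begins with eif1 to eif6, eef1 or eef2. The rule found 64 genes on 80 of the 15502 probe sets that measured zebrafish transcripts, among 8793 genes with a single symbol. The rule reads gene names and no signal, and it was set with earlier results of these data known. RNA came from pools of 400 whole embryos per group, kept at 28 °C and collected 24 hours after fertilization, with 1 array per group. A first group received no injection, another received control siRNA at the zygote stage, and the last received siRNA directed at PGRP-SC, a peptidoglycan recognition protein. Each injection was 1 nL of siRNA at 300 ng/µl, and the groups were drawn from a single mixed batch of embryos from all parents. The label of the last group names the target alone, and the word siRNA comes from the design text. The tables used here name 0 probe sets for a gene of the target's family, so the knockdown was not checked.

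Translation starts when a ternary complex of eIF2, GTP and the initiator tRNA joins the small ribosomal subunit with eIF1, eIF1A, eIF3 and eIF5. The eIF4F complex, made of the cap-binding protein eIF4E, the scaffold eIF4G and the helicase eIF4A, brings the messenger RNA, and eIF5B joins the large subunit. In elongation eEF1A delivers aminoacyl-tRNA, the eEF1B subunits recharge it with GTP, and eEF2 moves the ribosome along. The steps most often regulated are eIF2 (by kinases that phosphorylate its alpha subunit), eIF4E (by binding proteins that hold it away from eIF4G) and eEF2 (by its kinase, eEF2K).

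Signals are scaled linear intensities, and signals under a floor of 101.7, the 40th percentile over the arrays, were set to that floor. Where a single side of a ratio was under the floor the ratio is a bound, and where both were it was left out. The strongest probe set by mean signal stood for its gene. Signals are listed throughout in the order uninjected, control siRNA, PGRP-SC siRNA, and each is from 1 array. With 1 array per group no spread between embryo pools could be measured, no p-value was computed, and the number of arrays limits precision. As a yardstick between the controls, 95% of all genes with both signals above the floor were within 1.68-fold, and 95% of the translation factor genes within 1.59-fold.

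Some features of the arrays bear on every comparison below. Markers of several differentiated cell types were highest without injection and lowest with PGRP-SC siRNA: 4 skeletal muscle markers had summed signals of 45179.6, 26645 and 12352, 5 primitive erythrocyte markers 48113, 32286 and 22457, and 5 neuron markers 4050.4, 3110.4 and 1931. All 14 had a ratio below 0 in all 3 comparisons. The 3 epidermis markers summed to 49251, 49688 and 56867 and the 1 hatching gland marker to 5103, 5028 and 4998. The 3 notochord markers summed to 5896, 6989 and 5119, the 2 lens markers to 1084, 338 and 340, and, of 2 maternal and germ cell markers, dnd1 had 314, 206 and 545, highest with PGRP-SC siRNA, and ddx4 was under the floor in all arrays. The ratio of 5' to 3' signal of the muscle actin control probe sets was 0.369, 0.205 and 0.127, and that of the GAPDH control probe sets 0.350, 0.347 and 0.498. A control probe set of the array maker that the tables used here pair with no gene read 15050.2, 125 and 26710.4, so the control siRNA array stood apart from the others there. The part of these differences in the values below was not tested. In RNA of whole embryos, fewer cells of a type and less RNA per cell cannot be told apart.

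Most translation factor genes had nearly equal signals in embryos given PGRP-SC siRNA and in those given control siRNA. The share of them lower by at least 1.5-fold was near that of all genes, and the share higher was below it. Of 61 genes with a ratio, 1 was higher by at least 1.5-fold and 8 were lower by as much, 14.8% together, against 22.2% of all 6514 genes with a ratio (10.7% higher and 11.5% lower). At 2-fold, 0 were higher and 2 lower, against 2.87% and 2.93% of all genes. The median log2 ratio was -0.03, with quartiles of -0.29 and 0.10, and that of all genes was -0.0026, with quartiles of -0.31 and 0.285. The remaining 3 genes, eef1a1a, eef1a1b and eif4e1b, were under the floor in all arrays. Of the 52 genes short of 1.5-fold, 50 were measured within it, and for eef1a1l3 and eif3hb the ratio is a bound that leaves a larger difference possible. The number lower by 2-fold was 4 without the floor, 1 under median scaling or quantile normalization and 0 under a floor at the 60th percentile. The number higher by 2-fold was 2 without the floor, from eef1a1l3 and eif4e1b, whose signals with control siRNA were 16.6 and 3.88.

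**Figure D1:**
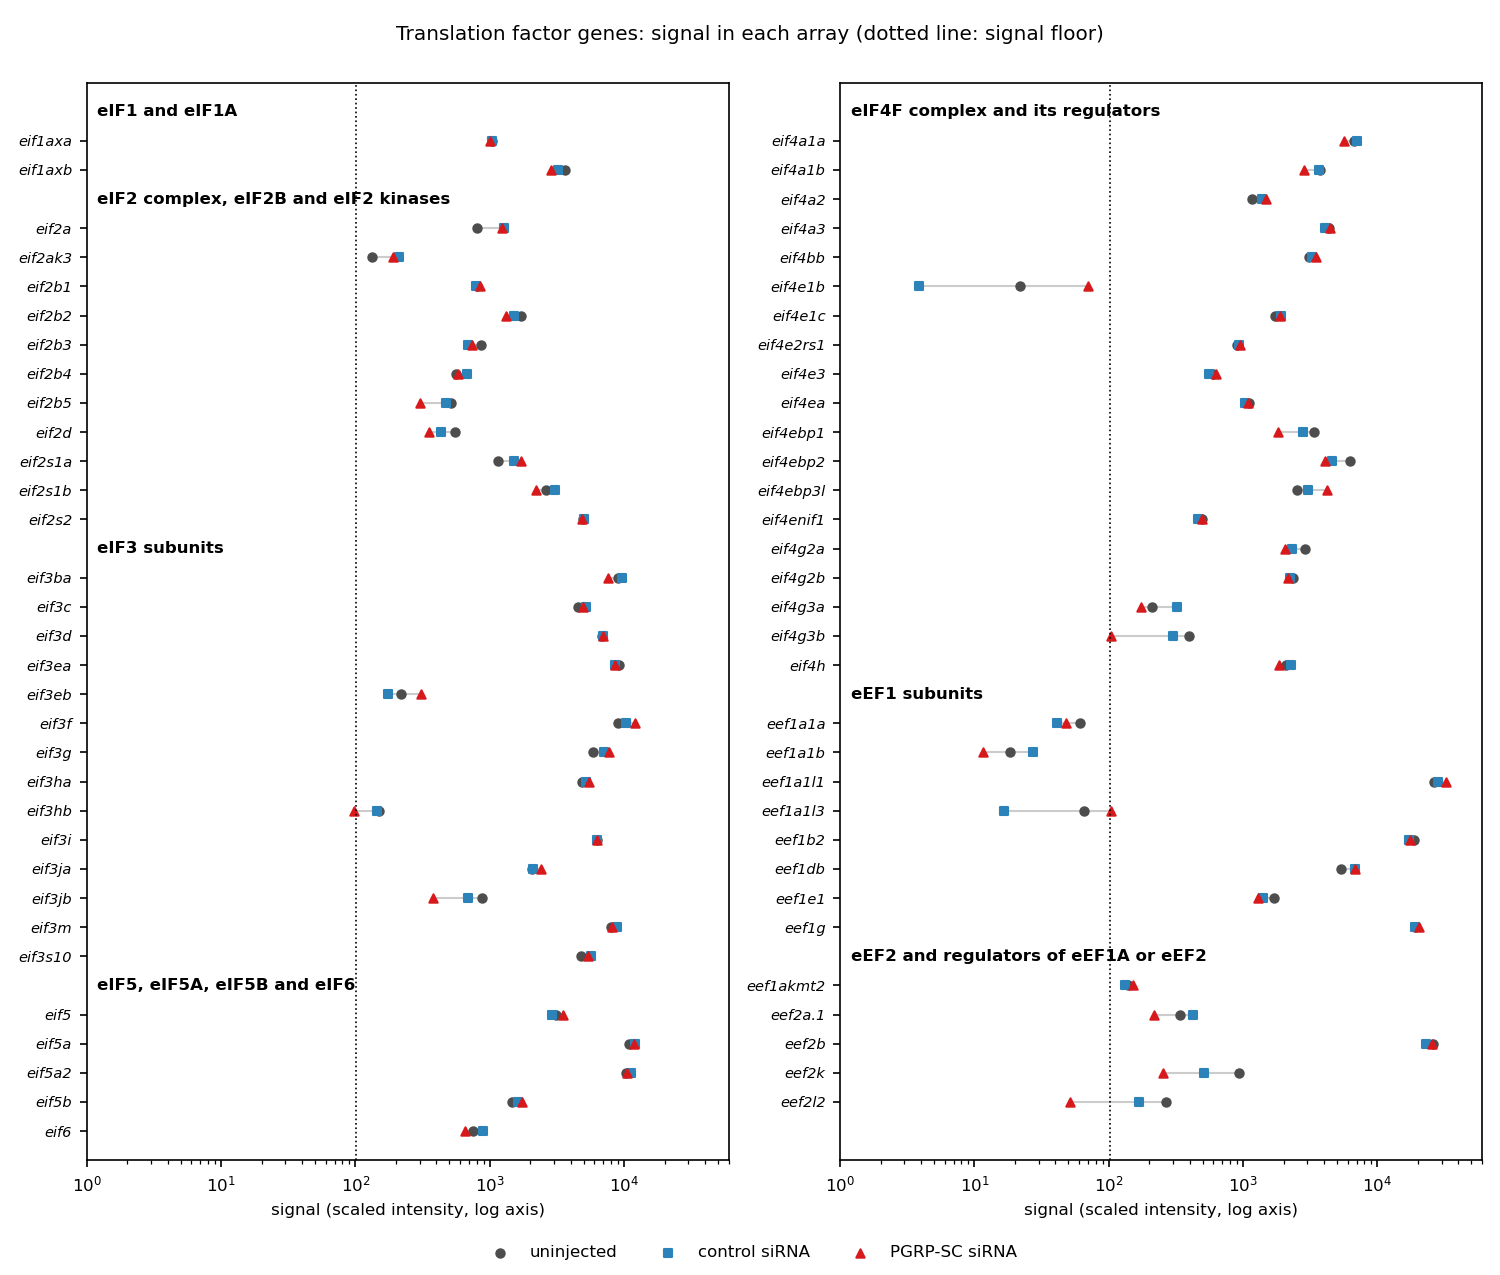
Signal of each of the 64 genes in the uninjected (circle), control siRNA (square) and PGRP-SC siRNA (triangle) arrays on a log axis, grouped by role, with the floor of 101.7 as a dotted line. The 3 symbols lie close together for most genes, and eef2k, eef2l2, eif4g3b and eif3jb are among those that spread.

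The differences lay mainly among genes of lower signal. Of 41 members with a mean signal of at least 1000, 40 were within 1.5-fold between PGRP-SC siRNA and control siRNA, and the exception was eif4ebp1, which median scaling puts at a log2 ratio of -0.55, short of 1.5-fold. Among all 1908 genes of that signal, 15.7% were at least 1.5-fold apart. Of 20 members with a ratio and a mean signal under 1000, 8 were at least 1.5-fold apart, 40%, against 24.8% of all 4606 such genes. The limit of 1000 was chosen after the values were seen, and the split is a description of these arrays.

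**Figure D2:**
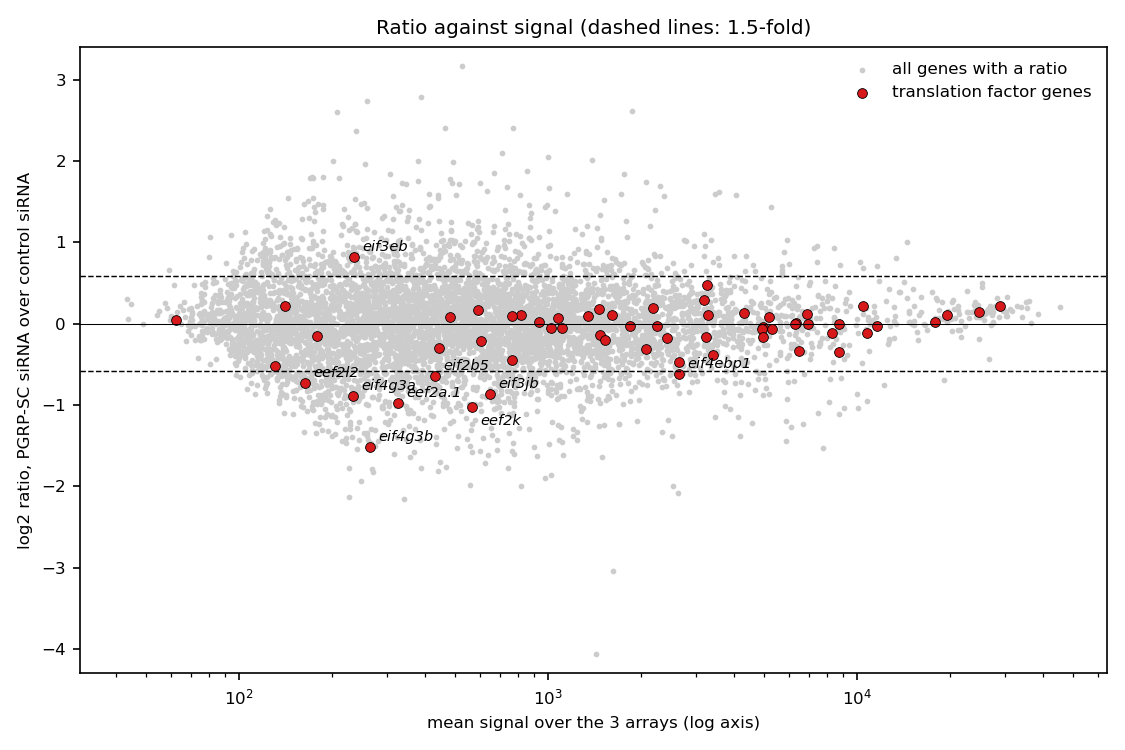
Log2 ratio of PGRP-SC siRNA over control siRNA against the mean signal of the 3 arrays (log axis), with all 6514 genes in grey, the 61 translation factor genes in red and dashed lines at 1.5-fold. Members of high signal sit near 0, and the 9 named members outside the lines have lower signals, eif4ebp1 apart.

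Against uninjected embryos most members were again within 1.5-fold. Of 61 genes, 2 were at least 1.5-fold higher and 9 lower, 18% together against 31.9% of all 6565 genes (16.2% higher and 15.6% lower), and the median log2 ratio was 0.0078 against 0.02. At 2-fold, 0 were higher and 4 lower, against 5.76% and 6.09% of all genes, and the 4 were eef2k, eef2l2, eif3jb and eif4g3b. Between the controls, 3 of 60 genes were at least 1.5-fold higher with control siRNA and 2 lower, 8.33% together against 11.5% of all genes (6.47% higher and 5.08% lower). At 2-fold, 0 were higher and 0 lower, against 1.11% and 0.774% of all genes. The comparisons share arrays, so they are given side by side and not as independent results. Of the 61 genes, 7 were at least 1.5-fold lower with PGRP-SC siRNA than in both controls, against 8.76% of 6412 genes, and 0 were at least 1.5-fold higher than both, against 8.47%. At 2-fold, 2 were lower than both, eef2k and eif4g3b, and 0 higher, against 2.39% and 2.4%. The 7 were eef2k, eef2l2, eef2a.1, eif4g3b, eif3jb, eif2b5 and eif4ebp1. Of these, eif3jb stayed past 1.5-fold against both controls under all 9 alternatives, and eef2k under the 8 that kept it. Each of the others fell short in at least 1. Those were eif2b5 and eif4ebp1 under median scaling, eif2b5 and eef2a.1 with a pseudocount, eef2a.1, eif4g3b and eef2l2 with a floor at the 60th percentile, and eef2l2 by the mean over its probe sets. That mean takes in sets under the floor in both injected arrays, so it cannot say whether the eef2l2 difference holds. The number lower than both was 5 under median scaling and 4 with that floor.

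The 5 genes of eEF2, its kinase and eef1akmt2, whose product acts on eEF1A, had the lowest median of the roles. Of the 5, 3 were at least 1.5-fold lower than with control siRNA, against 11.5% of all genes. These 3 had mean signals under 1000, where 580 of all 4606 genes with a ratio were lower by as much. The median log2 ratio of the 5, -0.73, is the ratio of eef2l2, which is a bound. That gene was at -1.71 without the floor and at -0.25 by the mean over its probe sets. Its other probe sets were under the floor in both injected arrays. The floor makes their signals equal there, which draws that mean toward no difference. Without the floor those sets were at log2 ratios of -0.11 and 3.04 over control siRNA, so neither was lower by 1.5-fold. Both ratios come from signals under the floor, so they cannot say whether the eef2l2 difference holds. The gene of the translocase, eef2b, had signals of 26102, 22991 and 25456, which are within 1.14-fold of each other. The gene of its inhibitory kinase, eef2k, had signals of 935, 513 and 253. That signal was highest without injection and lowest with PGRP-SC siRNA, 2.03-fold lower than with control siRNA and 3.70-fold lower than without injection, and it also differed 1.82-fold between the controls. Its log2 ratio over control siRNA was -1.02, and -0.95 under median scaling and -0.9985 under quantile normalization, which puts it just short of 2-fold.

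Further genes with eEF2 names also had lower signals with PGRP-SC siRNA than in either control. The signal of eef2a.1 was 339, 427 and 217, lowest in the last by 1.97-fold and 1.56-fold. Between the controls, 95% of genes with a mean signal under 1000 were within 1.73-fold, a range that holds the 1.56-fold and not the 1.97-fold. The signal of eef2l2, an eEF2-like gene, was 269, 169 and 51.7, and the last lies under the floor, so it was at least 1.66-fold lower than with control siRNA and at least 2.64-fold lower than without injection. Another probe set of it read 177, 55.4 and 51.5, under the floor in both injected arrays, and its remaining probe set was under the floor in all arrays. Both probe sets with signal were thus highest without injection, and they differ on the control siRNA array, where 1 was above the floor and the other under it. The methyltransferase gene eef1akmt2 had signals of 138, 131 and 152, within 1.16-fold.

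The eEF1 genes varied little. The eEF1A gene eef1a1l1 had signals of 26491, 28059 and 32596, 1.16-fold higher with PGRP-SC siRNA than with control siRNA. The eEF1B gamma subunit gene eef1g had 19080, 18969.5 and 20485, and the beta subunit gene eef1b2 18668, 17244 and 17516. The 5 eEF1 genes measured on both sides were within 1.5-fold in that comparison, from eef1e1, a protein of the multi-synthetase complex, at a log2 ratio of -0.14, to eef1a1l1 at 0.22. Of all genes, 22.2% were at least 1.5-fold apart there. The delta subunit gene eef1db had 5320.5 without injection and 6803 and 6817 in the injected arrays, so its log2 ratios against uninjected embryos were 0.35 and 0.36. For eef1a1l3 the signal was 65.6, 16.6 and 104.6, above the floor in 1 array only and barely so, and its ratio over either control is only a bound. The eEF1A genes are closely related in sequence, and probe sequences were not used here, so signal shared between paralogues was not checked.

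**Figure D3:**
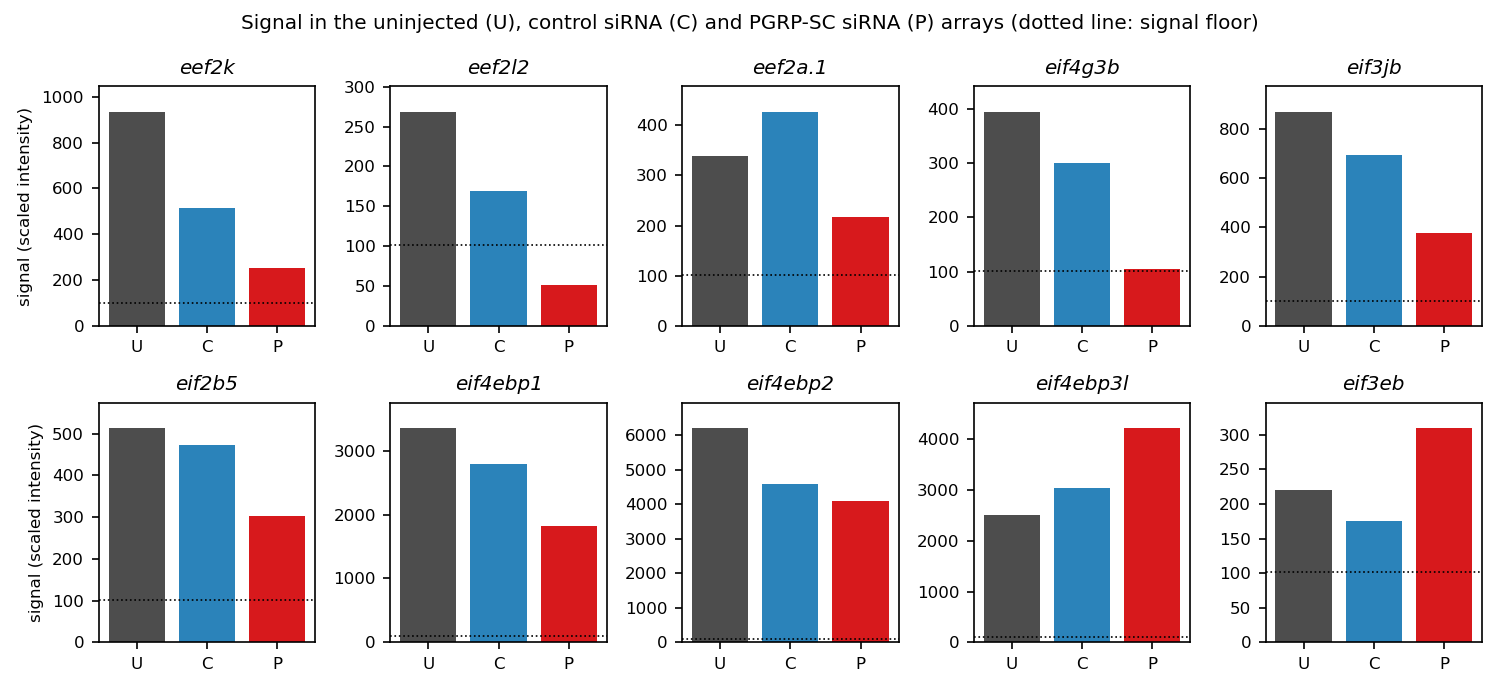
Signals (scaled intensity, axes from 0) of 10 genes in the uninjected (U), control siRNA (C) and PGRP-SC siRNA (P) arrays, with the floor of 101.7 as a dotted line and 1 array per bar. The first 7 panels hold the genes lowest with PGRP-SC siRNA by at least 1.5-fold against both controls, and the last 3 show eif4ebp2, eif4ebp3l and eif3eb.

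The eIF3 complex, the large scaffold that binds the small ribosomal subunit, was mostly flat across the arrays. Of its 14 genes, 11 were measured within 1.5-fold between PGRP-SC siRNA and control siRNA, eif3hb was at least 1.43-fold lower, and the median log2 ratio was -0.0058. Thus 14.3% were at least 1.5-fold apart, against 22.2% of all genes. The genes past 1.5-fold, eif3eb and eif3jb, had mean signals under 1000, where 24.8% of all genes were as far apart. Among all genes with a mean signal of at least 1000 the share was 15.7%, and every eIF3 gene of that signal was within 1.5-fold. The subunit genes eif3d, eif3i and eif3ea had log2 ratios of -0.0064, -0.0051 and -0.0033. The eif3f signal was 9002, 10362.5 and 11998, and that of eif3ba 8952, 9662.5 and 7561. The first was highest and the second lowest with PGRP-SC siRNA, by 1.16-fold and 1.28-fold against control siRNA. The remaining subunit genes, eif3c, eif3g, eif3ha, eif3ja, eif3m and eif3s10 (the older name of subunit a), ranged from -0.11 for eif3m to 0.19 for eif3ja.

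The 2 eIF3 genes at least 1.5-fold apart were each the b copy of a duplicated gene. The eif3jb signal, for the loosely bound subunit j, was 869, 692 and 378, whereas that of eif3ja was 2057, 2102 and 2400. The b copy was lowest with PGRP-SC siRNA, by 1.83-fold against control siRNA and 2.30-fold against uninjected embryos, and the a copy was highest there, by 1.14-fold and 1.17-fold. The eif3eb signal was 220, 176 and 310, higher by 1.76-fold against control siRNA and by 1.41-fold against no injection. With a floor at the 60th percentile its log2 ratio over control siRNA was 0.20, a bound short of 1.5-fold, and eif3ea was within 1.085-fold in all comparisons. For subunit h, eif3hb had 150.2, 146 and 97.1, the last under the floor, and eif3ha had 4824, 5191.5 and 5501.5. Of the 8 pairs of a and b copies with ratios for both, 5 differed from each other by at least 1.5-fold in their ratio of PGRP-SC siRNA over control siRNA. Besides those of subunits e, h (where the ratio of b is a bound) and j, these were eif2s1, at log2 ratios of 0.18 and -0.47 for a and b, and eif4g3, at -0.89 and -1.52. The a and b copies of eif1ax, eif4a1 and eif4g2 differed by less, with b minus a of -0.11, -0.05 and 0.14. These values use the strongest probe set of each gene. A weaker eif4g2a set was at -1.05, against -0.03 for eif4g2b, so the count depends on the probe set chosen. The same count over all such pairs of the array was not made, so whether 5 of 8 is unusual is not known.

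Among the eIF2 genes, 10 of 11 were within 1.5-fold between PGRP-SC siRNA and control siRNA, and the median log2 ratio was -0.16. That left 9.09% at least 1.5-fold apart, against 22.2% of all genes. The beta subunit gene eif2s2 had signals of 4953.5, 5015 and 4881. The alpha subunit genes had signals of 1158, 1511.5 and 1715 for eif2s1a and 2634, 3085 and 2225 for eif2s1b. The beta subunit was level, eif2s1a was highest and eif2s1b lowest with PGRP-SC siRNA. Of the eIF2B genes, whose products exchange GDP for GTP on eIF2, the catalytic epsilon subunit gene eif2b5 had 513, 472 and 302. It was lowest with PGRP-SC siRNA, by 1.57-fold and 1.70-fold, both inside the 1.73-fold range that holds 95% of genes with a mean signal under 1000 between the controls. Under median scaling its log2 ratio over control siRNA was -0.58, just short of 1.5-fold. The log2 ratios over control siRNA of eif2b1, eif2b2, eif2b3 and eif2b4 were 0.10, -0.20, 0.10 and -0.22.

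Of the other eIF2-named genes, eif2a and eif2ak3 differed more between the uninjected array and the injected ones than between the injected ones. The gene eif2a, an initiator tRNA-binding factor distinct from the eIF2 alpha subunit, had signals of 808, 1282 and 1233. It was 1.59-fold and 1.53-fold higher in the injected arrays, which differed from each other by 1.04-fold. The gene of PERK, the eIF2 kinase of the endoplasmic reticulum, eif2ak3, had 133, 212 and 190 by its only probe set with signal, while its 2 others read at most 21.2 in all arrays. The gene eif2d, an initiator tRNA-binding factor, went from 550 to 431 and 351.5, a log2 ratio of -0.65 over uninjected embryos and -0.29 over control siRNA.

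Of 18 genes of eIF4F and its regulators with a ratio, 3 were at least 1.5-fold lower than with control siRNA and 0 higher. That is 16.7%, against 22.2% of all genes. The 3 were the scaffold genes eif4g3a and eif4g3b and the binding protein gene eif4ebp1, described below. With those groups set aside, the helicase, cap-binding and cofactor genes with a ratio were within 1.5-fold. The helicase genes eif4a1a and eif4a1b had log2 ratios over control siRNA of -0.33 and -0.38, eif4a2 0.10 and eif4a3, the helicase of the exon junction complex, 0.13. The cap-binding protein genes eif4ea and eif4e1c were at 0.06 and -0.03, eif4e3 at 0.17 and eif4e2rs1 at 0.02. The eIF4A cofactors eif4bb and eif4h were at 0.10 and -0.31, so both directions occurred.

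Among the eIF4G scaffold genes, eif4g3b had the largest difference from control siRNA of all members measured above the floor on both sides. Its signal was 394, 299 and 104.7, the last just above the floor. It was 2.86-fold lower than with control siRNA and 3.77-fold lower than without injection, and a floor at the 60th percentile left a log2 ratio over control siRNA of -0.15, a bound. Against uninjected embryos eef2k was close to it, at log2 ratios of -1.89 and -1.91, and the order of these genes turned under quantile normalization, at -1.91 for eef2k and -1.89 for eif4g3b, and under cyclic loess, a pseudocount and the floor at the 60th percentile. Its paralogue eif4g3a had 210, 320 and 173, highest with control siRNA, but a second probe set with 138, 132 and 151 was level. The eIF4G-like gene eif4g2b, whose product lacks the eIF4E-binding part, had 2362, 2224 and 2172.

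The eIF4E-binding proteins, which block cap-dependent initiation when TOR is inactive, went in different directions. The signal of eif4ebp1 was 3350.0, 2796 and 1821, lowest in the last by 1.54-fold and 1.84-fold. Under median scaling its log2 ratio over control siRNA was -0.55, which is under 1.5-fold. Between the controls, 95% of genes with a mean signal of at least 1000 were within 1.57-fold, a range that holds the 1.54-fold and not the 1.84-fold. The signal of eif4ebp2 was 6199, 4591 and 4094, highest without injection, 1.51-fold above PGRP-SC siRNA and 1.35-fold above control siRNA. The first of these is under 1.5-fold with median scaling, at a log2 ratio of -0.56. That of eif4ebp3l was 2514, 3039.5 and 4220.5, highest with PGRP-SC siRNA by 1.39-fold and 1.68-fold. The first is thus lowest and the last highest in the same array, each from a single probe set. The eIF4E transporter gene eif4enif1 was level, at 490.3, 461.5 and 490.0.

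The 5 genes of eIF5, eIF5A, eIF5B and eIF6 were within 1.5-fold in all 3 comparisons. Of all genes, 22.2% were at least 1.5-fold apart between PGRP-SC siRNA and control siRNA. The share was 31.9% between PGRP-SC siRNA and uninjected embryos and 11.5% between the controls. The eIF5A gene eif5a, whose product carries hypusine and helps the ribosome past difficult stretches, had signals of 10887, 11977 and 11753, and eif5a2 had 10397, 11323 and 10461. The GTPase activator gene eif5 had the highest ratio over control siRNA of this role, at a log2 of 0.29, and eif6, which keeps the ribosomal subunits apart, the lowest, at -0.45. The eif6 signals were 749, 893 and 656, so the control siRNA array was the high one. The eIF1A genes eif1axa and eif1axb had log2 ratios over control siRNA of -0.05 and -0.16.

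Several genes gave different answers by probe set. Of 10 genes with more than 1 comparable probe set, 7 had ratios that differed by at least 0.5 on the log2 scale in some comparison. The same share over all genes of the array was not computed. The largest gap was in eif4a1a: its stronger probe set read 6680.3, 7068 and 5614, and its weaker one 880.3, 2736 and 2410.2. By the stronger set the controls were within 1.06-fold, and by the weaker one the control siRNA array was 3.11-fold and the PGRP-SC siRNA array 2.74-fold above the uninjected one. Between the injected arrays both sets gave a lower signal with PGRP-SC siRNA, at -0.33 and -0.18.

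The other disagreements were smaller, and those over control siRNA were in eif4g2a, eif4g3a and eif5b. For eif4g2a, the paralogue of eif4g2b, the stronger probe set was at a log2 ratio of -0.18 over control siRNA and the weaker one at -1.05, from signals of 791 and 383.5. For eif4g3a the ratios were -0.89 and 0.19, so its count among the 8 lower genes rests on 1 probe set. The ratios of eif5b, the GTPase that joins the subunits, were 0.11 and -0.41. For eif5a the sets differed over uninjected embryos, at 0.11 and -0.53, and for eif1axa and eif1axb between the controls, from -0.0077 to 0.62 and from -0.37 to 0.15. Those of eif4g2a and eif4g3a differed between the controls too, from -0.33 to 0.20 and from -0.07 to 0.61. The 3 genes whose sets did not differ so were eif4e1c, eif4e3 and eif5a2.

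**Figure D4:**
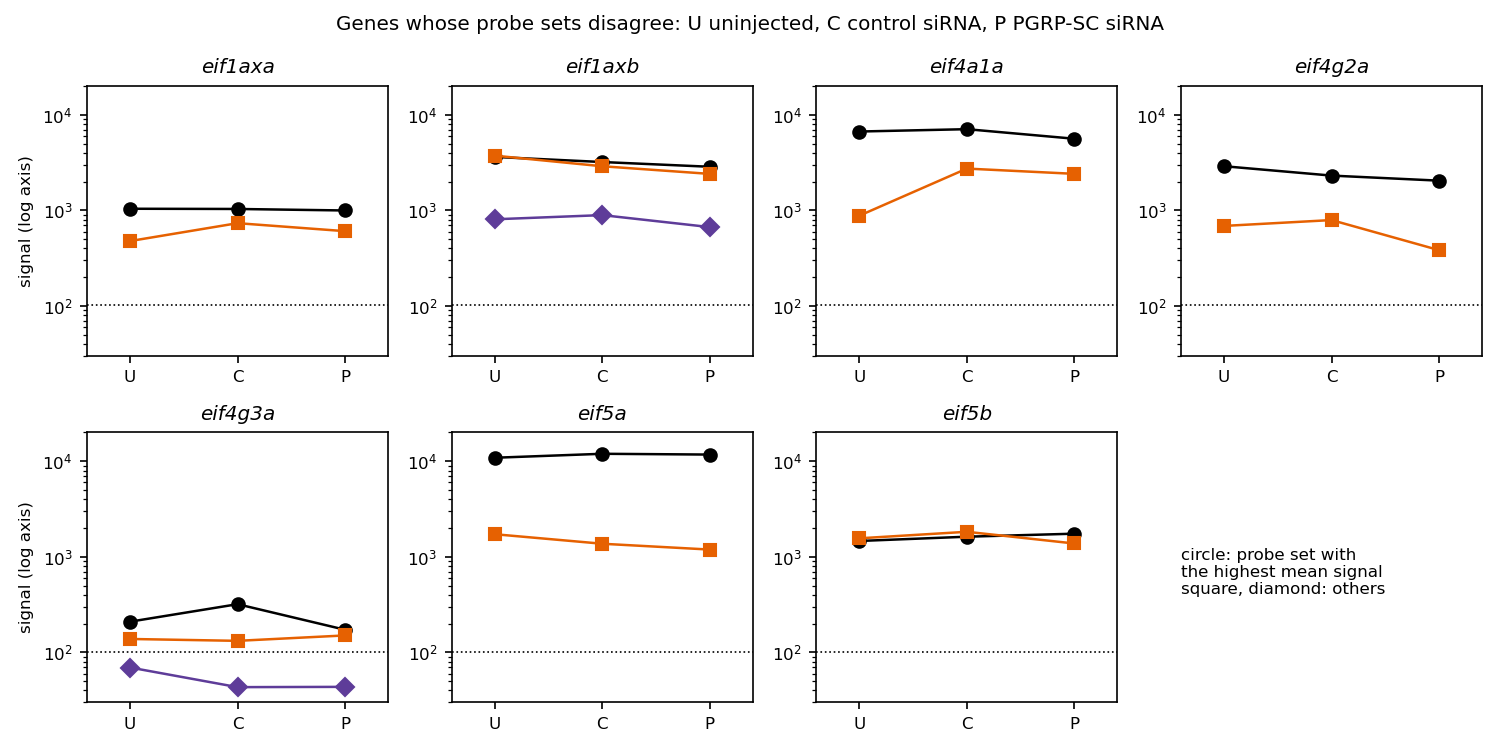
Signals (log axis) of every probe set of the 7 genes whose probe sets disagree, in the uninjected (U), control siRNA (C) and PGRP-SC siRNA (P) arrays, with the probe set of highest mean signal as a circle and the floor of 101.7 dotted. The weaker eif4a1a set steps from 880.3 to 2736 between the controls while the stronger one does not.

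Other genes of the translation pathway made up 6 lists that hold no member, and their counts stand against 10.7% of all genes at least 1.5-fold higher than with control siRNA and 11.5% lower, or 2.87% and 2.93% at 2-fold. In the list of TOR and MAP kinase control, 11 of 13 genes had a ratio over control siRNA, of which 2 were higher and 1 lower by at least 2-fold. A further 5 were measured within 1.5-fold, and for tsc1a, rheb and deptor the ratio is a bound that leaves a larger difference possible. The gene of the eIF4E kinase Mnk2, mknk2b, had signals of 633, 571 and 1808, 3.17-fold higher than with control siRNA, and its other probe sets, with 241, 328 and 699.5 and with 87.5, 135 and 667, were highest in the same array. Its paralogue mknk2a read 94.1 and 101, under the floor, and 213 with PGRP-SC siRNA, at least 2.10-fold higher. The S6 kinase gene rps6kb1b had 1456, 1304 and 541, 2.41-fold lower than with control siRNA. The list's median log2 ratio, bounds included, was 0.11. Over uninjected embryos 4 of 10 genes were at least 2-fold higher and 1 lower, against 5.76% and 6.09% of all genes. Besides both mknk2 genes, those were the TOR complex subunit gene akt1s1, with 989, 2126 and 2590, and the TOR inhibitor gene ddit4, with 142, 247 and 329, both chosen for mention after their values were seen. Both already differed between the controls, by 2.15-fold and 1.73-fold.

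The list of aminoacyl-tRNA synthetases, which charge tRNAs, holds 19 genes, of which 17 encode synthetases and aimp1a and aimp2 encode noncatalytic proteins of the multi-synthetase complex. Its median log2 ratio over control siRNA was -0.16, and -0.25 for the 17, with 1 at least 1.5-fold higher and 2 lower. The glutaminyl-tRNA synthetase gene qars1 was the 1 gene 2-fold apart, with 914, 1056 and 435. Its other probe sets had 835, 821 and 457 and 206, 161 and 148, so all of its sets were lowest with PGRP-SC siRNA. Over uninjected embryos the list's median was -0.40, with 6 of 19 at least 1.5-fold lower and 1 higher, against 15.6% and 16.2% of all genes.

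In the remaining lists, 3 of 10 termination and recycling genes were at least 1.5-fold lower than with control siRNA and 0 higher, against 11.5% and 10.7% of all genes, with a median of -0.24. The 3 were gspt1, pelo at -0.74 and abcf2a at -0.73. This list takes in abcf1 and abcf2a, whose part in termination or recycling was not examined. Its ratios ran from -0.85 for gspt1, a release factor GTPase whose second probe set was at 0.14, to 0.17 for mcts1. Of 15 genes in the list of poly(A) binding and cap regulators, 2 were at least 1.5-fold lower and 0 higher. The 2 were the RNA helicase gene ddx3xa and pabpc4, a poly(A)-binding protein gene with signals of 6357, 4369 and 2604. With PGRP-SC siRNA pabpc4 was 1.68-fold lower than with control siRNA and 2.44-fold lower than without injection. The list ranged from -0.75 for ddx3xa to 0.43 for pdcd4b, an eIF4A inhibitor. The list also takes in dhps and dohh, whose products make the hypusine of eIF5A, at -0.45 and 0.27. Of 4 mitochondrial translation factor genes, 1 was lower and 0 higher, from -0.75 for the elongation factor gene gfm1 to 0.40 for the recycling factor gene mrrf.

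Targets of the integrated stress response, the program that follows phosphorylation of eIF2, were split at 1.5-fold over control siRNA. Of 16 genes, 4 were at least 1.5-fold higher and 4 lower, against 10.7% and 11.5% of all genes, and the median log2 ratio was -0.14. At 2-fold, 2 were higher and 0 lower, against 2.87% and 2.93%. Over uninjected embryos, 4 of 16 were at least 1.5-fold higher and 2 lower, against 16.2% and 15.6% of all genes. At 2-fold those counts were 4 and 0, against 5.76% and 6.09%. The amino acid transporter chain gene slc3a2b was at 1.73 over control siRNA and the transcription factor gene cebpb at 1.30. The gene ppp1r15a, which encodes a subunit of the eIF2 alpha phosphatase and was chosen for mention after its values were seen, had signals of 168, 443 and 879. It was 1.98-fold higher with PGRP-SC siRNA than with control siRNA and 2.64-fold higher with control siRNA than without injection, and its 3 other probe sets were also highest with PGRP-SC siRNA. The translationally controlled factor genes atf4a and atf4b were at 0.14 and -0.61 over control siRNA. Besides atf4b, the genes lower than with control siRNA were phgdh at -0.73, shmt2 at -0.73 and asns at -0.66, a bound. Signals of shmt2 were 485, 1063 and 641, and those of asns 80.2, 160 and 61.9, so both were highest with control siRNA. For asns the other arrays were under the floor.

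**Figure D5:**
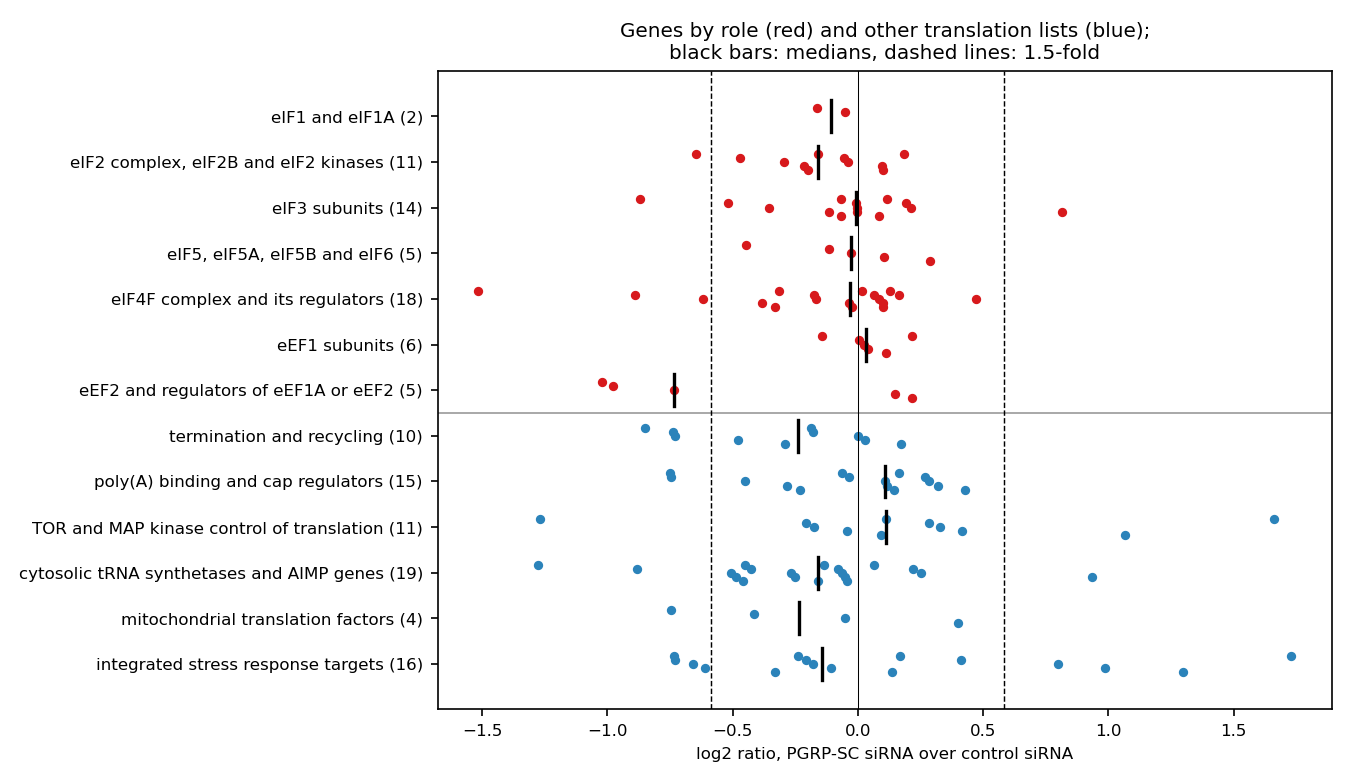
Log2 ratio of PGRP-SC siRNA over control siRNA for each gene of the 7 roles of translation factors (red) and of 6 other translation lists (blue), with the number of genes in brackets, medians as black bars and dashed lines at 1.5-fold. The median of the 5 genes of eEF2 and the regulators of eEF1A or eEF2 is -0.73, a bound, and those of the other 6 roles lie between -0.16 and 0.03.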

How the data were processed

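One-colour Affymetrix arrays of biotin-labelled cRNA were made from 3 embryo pools, with 1 array per group and total RNA extracted with Trizol, per the labels' protocols. The deposited table holds a linear signal intensity per probe set, made with GCOS 1.4 per the submitters' processing notes; no further setting is stated there. The deposited intensity values have equal means after removing 2% from each tail, at 500.1 in each array, so a change in the total RNA of an embryo would not show. Of 15617 probe sets, 115 controls were left out. Gene names came from the platform annotation, and all 80 member probe sets matched the reference table by gene ID. A further 2 probe sets naming a member and another gene were not counted.

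Signals were rescaled to a common 2% trimmed mean (factors 1, 0.9992 and 1.001) and floored at the 40th percentile, 101.7, which held 39.7% to 40.4% of probe sets. Log2 ratios were taken with Python 3.11.15 and pandas 2.3.3, and counts used thresholds of 1.5-fold and 2-fold. The 2-fold count was tested on simulated data with less spread than lay between the controls and with changes only in stronger probe sets. That test therefore cannot say how reliable the 2-fold counts of weak genes are. Named members are those 1.5-fold from both controls, 2-fold in any comparison, among the 2 of highest signal or at an end of the ratios of their role, or with probe sets 0.5 apart in log2 ratio; of other lists, genes 2-fold apart, or else the ends. Further genes are named to account for the counts. Roles of eef1a1l3, eif3s10 and eif4e1b were set by symbol. The members and lists were chosen with earlier results of these data known. Alternatives were 3 scalings, 3 floors, a pseudocount of 50, the mean over probe sets, and leaving out regulators of the factors.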

Additional observations from a re-analysis of the deposited data

How the results depend on the processing

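The median log2 ratio of the translation factor genes stayed within 0.1 of its value in all 9 alternatives, from -0.08 to 0.03 for PGRP-SC siRNA over control siRNA, from -0.02 to 0.05 over uninjected embryos and from -0.01 to 0.04 between the controls, so its sign is not settled. No ratio of a named member that was at least 1.5-fold changed direction. Counts were small and moved, mostly with the floor, which sets which weak genes are counted. For PGRP-SC siRNA over control siRNA, the 2 genes at least 2-fold lower became 1 with median scaling, quantile normalization or without the regulators, 4 unfloored and 0 with a floor at the 60th percentile; the 0 at least 2-fold higher became 2 unfloored or with a pseudocount and 1 with a floor at the 20th percentile. The 1 gene at least 1.5-fold higher became 3 unfloored, with a pseudocount or with a floor at the 20th percentile and 0 with one at the 60th, where the 8 lower became 5. Over uninjected embryos, the 2 at least 1.5-fold higher became 1 with quantile normalization, cyclic loess or without the regulators and 4 unfloored or with a floor at the 20th percentile; at 2-fold, the 0 higher became 1 unfloored and the 4 lower became 2 with a floor at the 60th. Between the controls, the 3 at least 1.5-fold higher became 1 with a floor at the 60th or a pseudocount, the 2 lower became 4 unfloored and 1 with a floor at the 60th, the mean over probe sets or without the regulators, and the 0 at least 2-fold lower became 2 unfloored. Against both controls, the 7 at least 1.5-fold lower became 4 with a floor at the 60th and the 0 higher became 2 unfloored or with a floor at the 20th and 1 with a pseudocount. Median scaling took the 8 lower than control siRNA to 6. Unfloored, eef2l2 was at -1.71 over control siRNA, and by the mean over probe sets eif4a1a was at 0.86 between the controls. Beyond what the floor and the removed genes set, the cause was not tested. Signal over background limits the weak genes. No paired analysis was possible because each group has 1 array.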
